A study of Mus musculus with 12 samples.

Results

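The genes described here encode protein disulfide isomerases, the oxidases that recharge them and related proteins of the endoplasmic reticulum (ER): Ero1l, Ero1lb, P4hb, Pdia3, Pdia4, Pdia5, Pdia6, Txndc4, Txndc5 and Creld2. They were found by the gene name given to each probe in the array's own annotation, and all 10 names were present, with 19 of the 41174 probes and 10 of the 27962 gene names tested. Current RefSeq symbols are Ero1a for Ero1l, Ero1b for Ero1lb and Erp44 for Txndc4. Ero1l had 2, Ero1lb 3, Pdia6 4, Txndc4 3 and Txndc5 2, and the other genes had 1 each.

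Amplified RNA was measured on 12 single-colour arrays, 1 for each of 12 mice aged 14 days, from hypertrophic zones cut out of 1 tibia per mouse. Schmid mice were homozygous for a knock-in mutation of the endogenous collagen X gene Col10a1. Cog mice carried the ColXTgcog transgene, in which the Col10a1 promoter drives a misfolding thyroglobulin in hypertrophic chondrocytes, and animals with the transgene on 1 or on both chromosomes were not told apart. The remaining groups were wildtype mice of the Schmid background and wildtype mice of the Cog background. Each group had 3 mice, which sets the precision of all that follows.

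Disulfide bonds are made in the ER by a relay. A protein disulfide isomerase passes its own disulfide to a secreted protein, or reshuffles bonds that formed between the wrong cysteines, and is left reduced. Ero1 oxidases reoxidise the isomerase and hand the electrons to oxygen, which produces hydrogen peroxide. Hypertrophic chondrocytes secrete large amounts of collagen X, whose chains must fold and trimerise in the ER. The authors state that wildtype collagen X, except in cattle, assembles without disulfide bonds, while the Schmid mutation can cause aberrant ones. Thyroglobulin, by their account, needs many such bonds. Many genes of the disulfide relay are known targets of the unfolded protein response (UPR).

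Part of this set rose in both mutants, and the oxidase genes differed from each other. At the brightest probe of each gene, 6 of the 10 genes rose at least 2-fold in Schmid (Ero1l, Ero1lb, P4hb, Pdia4, Pdia6 and Creld2) and 5 in Cog (Ero1lb, Pdia3, Pdia4, Pdia6 and Creld2), and 0 fell in either. A gene counted as changed when its adjusted p was 0.05 or lower (limma, Benjamini-Hochberg over all 41174 probes) and its fold change at least 2. Over the brightest probes of all gene names, 5.80% were called higher in Schmid and 1.89% in Cog. The median log2 change of the 10 genes was 1.35 in Schmid and 1.18 in Cog, beside -0.09 and -0.0031 for the brightest probes of all names. Between the wildtype groups 0 of the 10 genes were called, and 0 had an unadjusted p under 0.05 (limma), where 0.233% of all probes were called higher and 0.236% lower. The changes in Schmid and Cog were also compared with each other, at an adjusted p of 0.05 or lower and with no fold limit. Of the 10 genes 1 differed, Ero1l, where 17.7% of the brightest probes of all gene names did, so the count itself is not above the background.

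**Figure D1:**
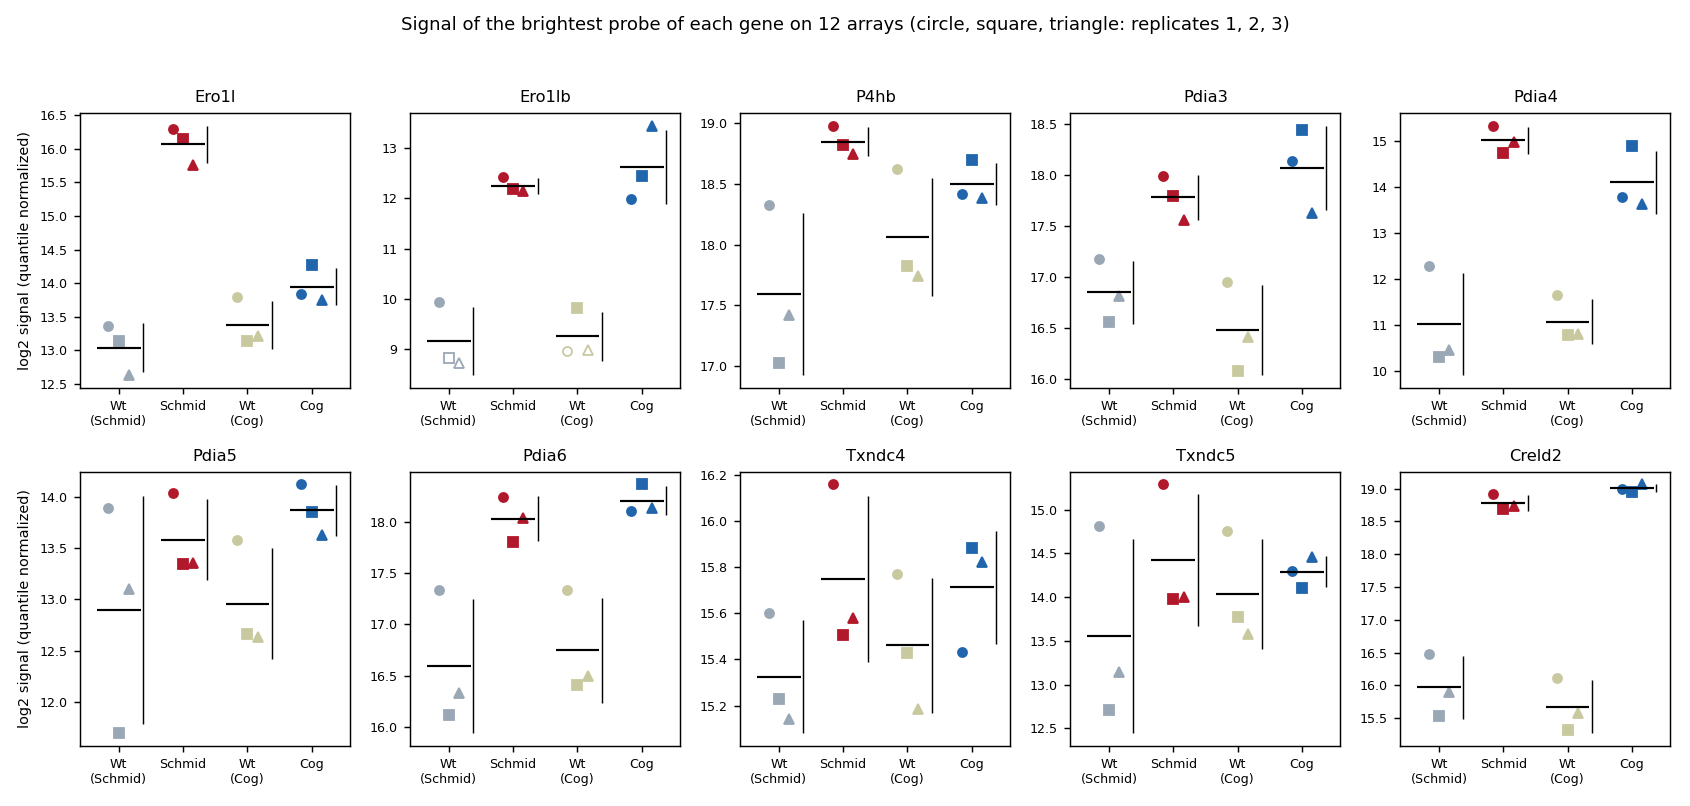
Log2 signal (y axis) of the brightest probe of each of the 10 genes on every array, by group (x axis, 3 mice each). Circles, squares and triangles are replicates 1, 2 and 3, open symbols are spots not well above background, horizontal lines are means and vertical lines are 1 SD. The 3 Ero1l values of Schmid lie above all others, while the 3 Ero1lb values of Schmid and of Cog both lie above both wildtype groups.

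The sequences of the Ero1l and Ero1lb probes are shown because the comparison of the oxidases rests on these 60-base oligonucleotides. The Ero1l probe (NM_015774, antisense strand of the genome, chr14:40604282-40605985 in build mm7) spans 1704 genomic bases and so crosses a splice junction. The Ero1lb probe (NM_026184, sense strand, chr13:12553915-12553974 in build mm7) lies in 1 block. Each left 1 of its 3 forward reading frames free of stop codons. Aligned without gaps they matched at 19 of 60 positions, and their longest shared run was 6 bases.
Ero1l probe A_52_P423424: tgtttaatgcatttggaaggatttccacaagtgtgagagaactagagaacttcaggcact
Ero1lb probe A_52_P603836: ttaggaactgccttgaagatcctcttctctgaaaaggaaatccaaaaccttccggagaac

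The upstream windows that follow are shown because the members that moved include genes with and without an ER stress response element (ERSE), the bipartite motif through which Atf6 and Xbp1 act with NF-Y. The motif searched was CCAAT, then any 9 bases, then CCACG, on either strand, in the 250 bases before each RefSeq start (build GRCm38.p6). Of 32851 such windows over all genes, 37 held it (0.113%). All 10 genes matched RefSeq by accession and had 13 windows between them, since Txndc4 had 2 starts and Txndc5 had 3, and the motif was in 3 windows, those of Ero1lb, Creld2 and Pdia6. In these 3 sequences the capitals mark the ERSE, and the Ero1lb sequence is printed only up to the first annotated base of the gene, 185 of the 250 bases searched. The Ero1l window held no CCAAT on either strand, and there the capitals mark its single match to CCACG, read on the opposite strand.
Ero1lb, chr13:12565633-12565817, plus strand: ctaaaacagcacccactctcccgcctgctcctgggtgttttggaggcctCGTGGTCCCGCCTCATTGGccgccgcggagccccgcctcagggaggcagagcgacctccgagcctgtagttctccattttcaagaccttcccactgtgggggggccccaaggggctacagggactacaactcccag
Creld2, chr15:88819396-88819645, plus strand: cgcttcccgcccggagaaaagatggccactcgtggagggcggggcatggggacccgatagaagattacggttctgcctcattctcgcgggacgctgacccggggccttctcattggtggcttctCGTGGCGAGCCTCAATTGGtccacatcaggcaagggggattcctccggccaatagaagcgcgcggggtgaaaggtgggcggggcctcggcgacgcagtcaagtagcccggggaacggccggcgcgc
Pdia6, chr12:17266339-17266588, plus strand: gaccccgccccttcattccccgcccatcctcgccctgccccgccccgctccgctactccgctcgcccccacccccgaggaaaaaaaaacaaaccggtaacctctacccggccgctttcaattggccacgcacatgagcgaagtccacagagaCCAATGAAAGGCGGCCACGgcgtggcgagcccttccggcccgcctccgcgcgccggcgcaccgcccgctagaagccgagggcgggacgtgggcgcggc
Ero1l, chr14:45318573-45318822, minus strand: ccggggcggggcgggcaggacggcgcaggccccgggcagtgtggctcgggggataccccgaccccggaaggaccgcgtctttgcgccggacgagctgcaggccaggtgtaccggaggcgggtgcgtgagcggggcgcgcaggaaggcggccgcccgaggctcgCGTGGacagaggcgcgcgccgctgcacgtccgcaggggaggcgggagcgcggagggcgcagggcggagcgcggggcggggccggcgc

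In the Ero1lb window the element lay 201 to 183 bases before the RefSeq start that the search window was set by, which lies inside the annotated gene beyond the printed bases. It lay in Creld2 126 to 108 and in Pdia6 98 to 80. Pdia4, called in both mutants, held CCAAT in its window but neither the ERSE nor CCACG. The windows of Pdia3, called only in Cog, and P4hb, called only in Schmid, also lacked the ERSE. The matches thus did not separate genes called in both mutants from the others. The sequence TGACGTGG, the core of a separate UPR element, was in 1 member window, the third of Txndc5, and in 0.563% of all windows. The second form of the ERSE (ATTGG, any 1 base, CCACG) was present in 0.0304% of all windows and the sequence TTGCATCA in 0.791%. Both were in 0 of the 13 member windows. CCAAT alone was in 8 of the 13 windows and in 33.8% of all windows, and CCACG alone in 10 of the 13 and 28.3% of all. A match is a run of letters in this window and was not tested as a binding site.

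Before the genes themselves, the samples were checked against their labels. The probe for Tgn, the gene of the transgene product, was 239-fold higher in Cog than in its wildtype (limma, adjusted p = 1.2e-09), and its log2 change in Schmid was -0.10 (adjusted p = 0.64). Col10a1 itself, whose level a point mutation need not alter, changed by -0.02 in Schmid and 0.996 in Cog on the log2 scale (limma, adjusted p = 0.99 and 0.39). All 6 hypertrophic chondrocyte markers on the array were well above background on every array, although Ihh was lower in both mutants and Akp2 in Schmid. Markers of other cells also moved. In Schmid 3 of 4 red cell genes, 3 of 5 endothelial genes and 2 of 5 plasma and B cell genes were lower. Col1a1 of the 3 osteoblast genes was lower there too, and 0 genes of these lists were called in Cog. Among all probes 4.69% were called lower in Schmid and 0.748% in Cog. Of 6 neutrophil and 4 osteoclast genes, 0 were called in either mutant. The summed red cell signal was 14.48 to 15.96 (log2) on Schmid arrays against 17.91 to 19.87 in its wildtype, and 16.51 to 17.93 on Cog arrays against 17.15 to 18.20. The summed endothelial signal was 12.32 to 12.87 in Schmid, 14.16 to 14.92 in its wildtype, 13.40 to 14.25 in Cog and 14.47 to 14.86 in its wildtype, and 1 of the 5 endothelial genes in each group was at background throughout. The summed neutrophil signal was 12.14 to 13.88 in Schmid against 12.46 to 17.23 in its wildtype. In Cog it was 13.49 to 15.49 against 12.66 to 12.88 in its wildtype. The part of these differences in the changes that follow was not tested. In bulk tissue fewer cells of a type and less RNA per cell cannot be told apart. The arrays lay on 4 slides, and no mutant shared a slide with its control group, so within a pair slide cannot be told apart from genotype. From 39.6 to 61.8% of spots were well above background on an array.

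Ero1l encodes the alpha form of the ER oxidase, which most tissues express. On the 3 Schmid arrays its log2 signal was 16.29, 16.15 and 15.76, and on the wildtype arrays of that background 13.36, 13.14 and 12.63. The Cog arrays read 13.84, 14.27 and 13.75, and their wildtype arrays 13.79, 13.15 and 13.21. All Schmid values lay more than 1 log2 unit above every other array, while the lowest Cog array lay just under the highest of its wildtypes. The mean in Schmid was 16.07 ± 0.28 (SD, n = 3) against 13.04 ± 0.37 (SD, n = 3), an 8.14-fold rise (limma, adjusted p = 9.5e-05). In Cog the change was 1.48-fold, with a 95% interval of 0.02 to 1.11 on the log2 scale. It did not pass the test (limma, unadjusted p = 0.043 and adjusted p = 0.22). Over all alternatives this log2 change was 0.38 to 0.83, under the fold limit, and its adjusted p (limma) was 0.031 to 0.64. A small rise in Cog is thus not excluded.

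The Ero1l change was 5.50-fold larger in Schmid than in Cog, a log2 difference of 2.46 with a 95% interval of 1.69 to 3.23 (limma, adjusted p = 0.0017). The second Ero1l probe, well above background on 7 of the 12 arrays, gave the same order: 9.25-fold higher in Schmid (limma, adjusted p = 0.00017), 1.44-fold in Cog (adjusted p = 0.35) and a log2 difference of 2.68 between the mutants (adjusted p = 0.0030). Only 1 of the 3 arrays in each wildtype group measured that probe above background. Over all alternatives the log2 difference of Ero1l between the mutants stayed between 2.25 and 2.76 and its adjusted p between 0.00028 and 0.0089.

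Ero1lb encodes the beta form of the oxidase, known for its abundance in cells with a heavy secretory load such as those of the pancreas. Its log2 signal was 12.43, 12.18 and 12.14 on the Schmid arrays and 9.95, 8.83 and 8.72 on their wildtype arrays. On the Cog arrays it was 11.995, 12.44 and 13.45, and on theirs 8.96, 9.82 and 8.99. Every mutant array of both kinds lay more than 2 log2 units above every wildtype array, and only 1 of 3 arrays in each wildtype group was well above background. The rise was 8.48-fold in Schmid (limma, adjusted p = 0.00088), and Cog arrays stood 10.4-fold above theirs (adjusted p = 0.0037). With 1 array left out the log2 change was 2.86 to 3.48 in Schmid and 2.96 to 3.69 in Cog. Over all alternatives it reached 5.29 and 5.85. Its lowest values, -0.64 and 0.25, were those of the dimmest probe. The fold sizes thus depend on the processing and the probe. The log2 difference between the mutants was -0.29 with a 95% interval of -1.59 to 1.01 (limma, adjusted p = 0.77), so a difference of either sign up to about that size was not detectable with 3 mice a group.

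The other Ero1lb probes did not all follow. A_52_P424462, well above background on 9 of 12 arrays, was 2.54-fold higher in Schmid (limma, adjusted p = 0.014) and 5.46-fold higher in Cog (adjusted p = 0.0050). Its log2 difference between the mutants was -1.10 (unadjusted p = 0.034 and adjusted p = 0.12, limma). A_51_P354642, annotated to the cDNA AK004981, was well above background on only 2 of 12 arrays and on 0 in Schmid. Its fitted log2 change in Schmid was -0.64 (limma, adjusted p = 0.0052), short of the 2-fold threshold, and no size is read from it. In Cog and in its wildtype the probe was at background on every array, so no difference between the mutants was read from it.

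Set against each other within each array, the oxidases separated the mutants. The signal of a probe cannot be compared with that of another probe, so only the change of the difference between them was read. Ero1l minus Ero1lb was 3.87, 3.97 and 3.62 on the Schmid arrays and 3.41, 4.31 and 3.92 on their wildtypes, a change of -0.06. It was 1.84, 1.82 and 0.30 on the Cog arrays and 4.83, 3.33 and 4.22 on their wildtypes, a change of -2.81. All 3 Cog arrays lay below all 9 others, and the Schmid arrays lay inside the range of the wildtype arrays. In each wildtype group the Ero1lb probe was well above background on only 1 of 3 arrays. The wildtype differences, and the changes taken from them, thus depend on signal near background. The changes differed by 2.75 log2 units, or 6.72-fold (two-sided exact permutation test over 400 arrangements, p = 0.04, smallest possible 0.005). That p was 0.135 on the scanner's processed signal, where the value was 2.82, and 0.07 without replicate 1 of the Cog wildtype or replicate 2 of Schmid, and 0.06 without Schmid replicate 1 or 3. With the second Ero1l probe against the same Ero1lb probe the value was 2.97 (exact permutation p = 0.055), and with the other measured Ero1lb probe 3.56 and 3.78 (exact permutation p = 0.01 and 0.015).

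**Figure D2:**
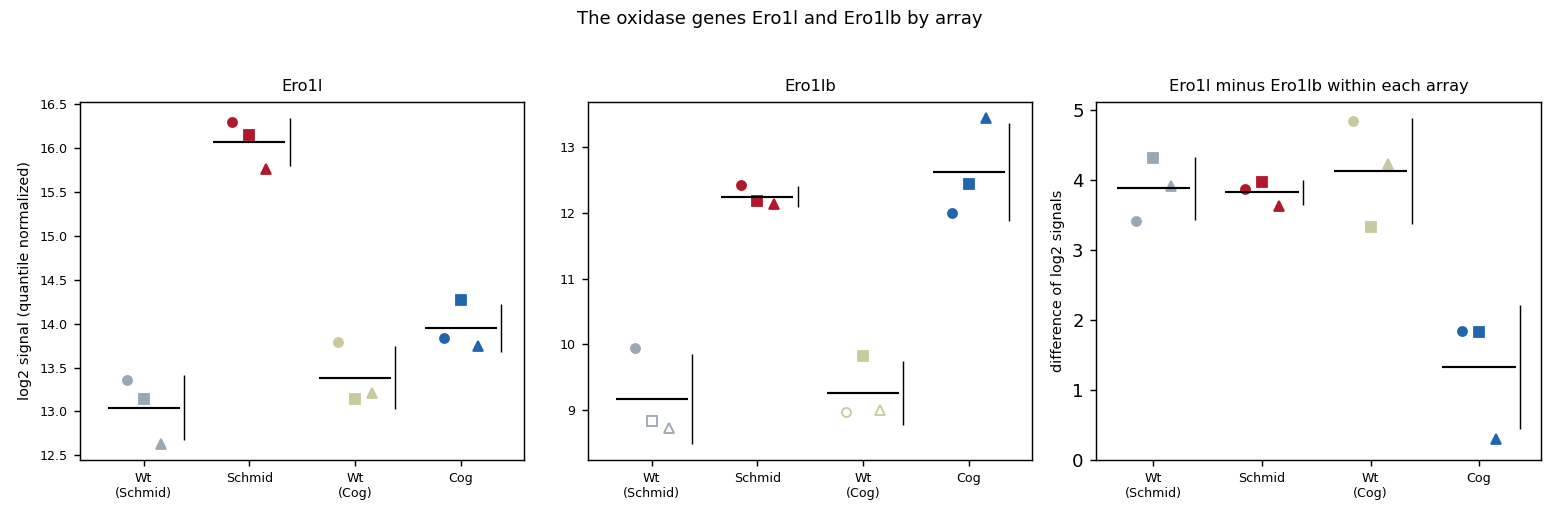
Log2 signal of Ero1l (left) and Ero1lb (middle) and their difference within each array (right), by group of 3 mice. Symbols, horizontal and vertical lines are replicates, means and 1 SD, and open symbols are spots not well above background. On the right the 3 Cog arrays, at 0.30 to 1.84, lie below all other arrays, which lie at 3.33 or above.

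The genes whose signal followed each oxidase most closely over the 12 arrays, among 16718 gene names measured, also differed, as a description with no test. For Ero1l they were Oxnad1 (Pearson r = 0.973), Ebna1bp2 (0.971) and Sdcbp2 (0.969). For Ero1lb they were Dnajb9 (0.978), an ER co-chaperone, a probe with no gene name (0.965) and the transcription factor Atf3 (0.965). The 12 points share their 4 groups, so such values mostly restate the group means: Oxnad1 moved by 2.56 on the log2 scale in Schmid and 0.12 in Cog, and Dnajb9 by 3.27 and 2.90.

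Among the isomerases, Pdia4 moved most. Pdia4 (ERp72) carries several catalytic thioredoxin domains and binds with other chaperones to folding proteins. Its log2 signal was 15.33, 14.74 and 14.97 in Schmid against 12.29, 10.32 and 10.45 in its wildtype, and 13.79, 14.90 and 13.63 in Cog against 11.65, 10.78 and 10.81. Both mutant groups lay entirely above their wildtypes, and replicate 1 was the highest array in each wildtype group by more than 0.8. The rise was 15.96-fold in Schmid (limma, adjusted p = 0.00074), and Cog arrays stood 8.14-fold above theirs (adjusted p = 0.013). The log2 difference of 0.97 had a 95% interval of -0.66 to 2.60 (limma, adjusted p = 0.39). The Cog call was lost without replicate 2 or 3 of its wildtype (adjusted p = 0.062 and 0.051, limma).

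Pdia6 (P5), an isomerase that works with the chaperone Hspa5, rose by nearly the same amount in both mutants. Its brightest probe read 18.24, 17.81 and 18.03 in Schmid against 17.34, 16.11 and 16.33, and 18.10, 18.37 and 18.14 in Cog against 17.33, 16.40 and 16.50. The groups of each pair did not overlap, and again replicate 1 was the highest wildtype array in both. This was a 2.71-fold change in Schmid (limma, adjusted p = 0.011) and a 2.75-fold change in Cog (adjusted p = 0.033), with a difference of -0.02 and a 95% interval of -1.03 to 0.99 on the log2 scale. The Cog call was the least stable of the set: 8 of the fits with fewer arrays, among them each one without a Cog array, put its adjusted p between 0.051 and 0.126.

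The other Pdia6 probes were called in both mutants where they were measured. A_51_P297968 was 4.83-fold higher in Schmid and 3.55-fold higher in Cog (limma, adjusted p = 0.0041 and 0.037). A_52_P135455, annotated to the cDNA AK148928, was 2.39-fold higher in Schmid and 6.92-fold higher in Cog (adjusted p = 0.010 and 0.0013), and on this probe the change was larger in Cog (log2 difference -1.54, adjusted p = 0.026, limma). The Cog arrays read 14.08, 13.04 and 13.08 there and the Schmid arrays 12.18, 12.50 and 12.26, with no overlap. The fourth probe, A_52_P339495, stayed at background throughout the 12 arrays.

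P4hb, the founding protein disulfide isomerase, is also the beta subunit of the prolyl 4-hydroxylase that modifies collagen chains. Its signal was 18.98, 18.82 and 18.74 in Schmid against 18.33, 17.03 and 17.42 in its wildtype, and 18.42, 18.70 and 18.38 in Cog against 18.62, 17.83 and 17.74. The Schmid arrays lay above all their wildtype arrays, and the Cog arrays overlapped theirs through wildtype replicate 1. The gene rose 2.39-fold in Schmid (limma, adjusted p = 0.018), with 1 Schmid spot saturated, and the change in Cog was 1.36-fold (adjusted p = 0.46). Schmid exceeded Cog by 0.82 on the log2 scale, with a 95% interval of -0.18 to 1.81 (limma, adjusted p = 0.23). The Schmid call was lost without Schmid replicate 1 or wildtype replicate 2 or 3 (adjusted p = 0.062, 0.070 and 0.059), and without wildtype replicate 1 the difference passed (adjusted p = 0.035).

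Pdia3 (ERp57) acts on glycoproteins held by calnexin and calreticulin. Its signal was 17.99, 17.79 and 17.55 in Schmid against 17.18, 16.56 and 16.82, and 18.14, 18.44 and 17.63 in Cog against 16.95, 16.08 and 16.42. Neither mutant overlapped its wildtype. The gene rose 3.01-fold in Cog (limma, adjusted p = 0.013), while the 1.90-fold change in Schmid had an adjusted p of 0.031 but stayed under 2-fold. The log2 difference of -0.66, with a 95% interval of -1.50 to 0.18, did not pass the test (limma, adjusted p = 0.25). The Schmid value came to 2-fold or more on the authors' normalized values (log2 change 1.03) and without Schmid replicate 3 (1.04) or wildtype replicate 1 (1.09), and the Cog call was lost without wildtype replicate 2 (adjusted p = 0.057) and with Cog and its wildtype fitted alone (0.065).

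Creld2, a small ER protein with an isomerase-like activity whose gene is a known UPR target, was close to the upper end of the scale in both mutants. It read 18.92, 18.69 and 18.74 in Schmid against 16.48, 15.53 and 15.91, and 18.99, 18.95 and 19.07 in Cog against 16.12, 15.33 and 15.58. The highest log2 value of any probe after normalization was 19.18, so little room was left above these arrays, although 0 of its spots were saturated. The separation from wildtype exceeded 2 log2 units on every mutant array. The log2 difference between the mutants was -0.52 with a 95% interval of -1.28 to 0.25 (limma, adjusted p = 0.32). Creld2 was called in both mutants under every alternative, with adjusted p up to 0.0038 in Schmid and 0.014 in Cog.

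The remaining members did not pass the test in either mutant with the settings used throughout. Pdia5 (PDIR), an isomerase tied to the activation of Atf6, read 14.04, 13.35 and 13.36 in Schmid against 13.89, 11.69 and 13.10, and 14.13, 13.85 and 13.63 in Cog against 13.58, 12.66 and 12.63. The Schmid arrays overlapped their wildtypes, and the Cog arrays lay just above theirs. The fold changes were 1.61 and 1.88 (limma, adjusted p = 0.32 and 0.31), with a 95% interval in Cog of -0.16 to 1.98 on the log2 scale. The wildtype arrays of the Schmid background were 2.20 log2 units apart, which is more than either change. Without wildtype replicate 2 the log2 change in Schmid was 0.087 and without wildtype replicate 1 it was 1.19, with neither called (limma, adjusted p = 0.90 and 0.065). In Cog the gene was called with array weights (log2 change 1.19, adjusted p = 0.043, limma).

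Txndc5 (ERp46), a thioredoxin-domain oxidase partner abundant in endothelial and secretory cells, read 15.29, 13.98 and 14.00 in Schmid against 14.81, 12.71 and 13.14, and 14.30, 14.11 and 14.46 in Cog against 14.76, 13.78 and 13.58. Both pairs overlapped through replicate 1 of the wildtype. The changes were 1.83-fold in Schmid and 1.19-fold in Cog (limma, adjusted p = 0.26 and 0.83). Without wildtype replicate 1 the Schmid change was 1.501 on the log2 scale and passed (adjusted p = 0.030). Its second probe stayed at background on all 12 arrays.

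Txndc4 (ERp44) retains Ero1 oxidases in the early secretory pathway, since these lack a strong retention signal of their own. Its signal was 16.16, 15.51 and 15.58 in Schmid against 15.60, 15.23 and 15.14, and 15.43, 15.88 and 15.82 in Cog against 15.77, 15.43 and 15.19. Both pairs overlapped. The fold changes were 1.34 and 1.19 (limma, adjusted p = 0.18 and 0.56), and the 95% intervals reached 0.92 and 0.74 on the log2 scale. A second probe, A_52_P12001, gave 1.67-fold and 1.64-fold (unadjusted p = 0.041 and 0.046, adjusted p = 0.11 and 0.23, limma), with intervals up to 1.44 and 1.42. None of its 3 probes was called in either mutant.

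**Figure D3:**
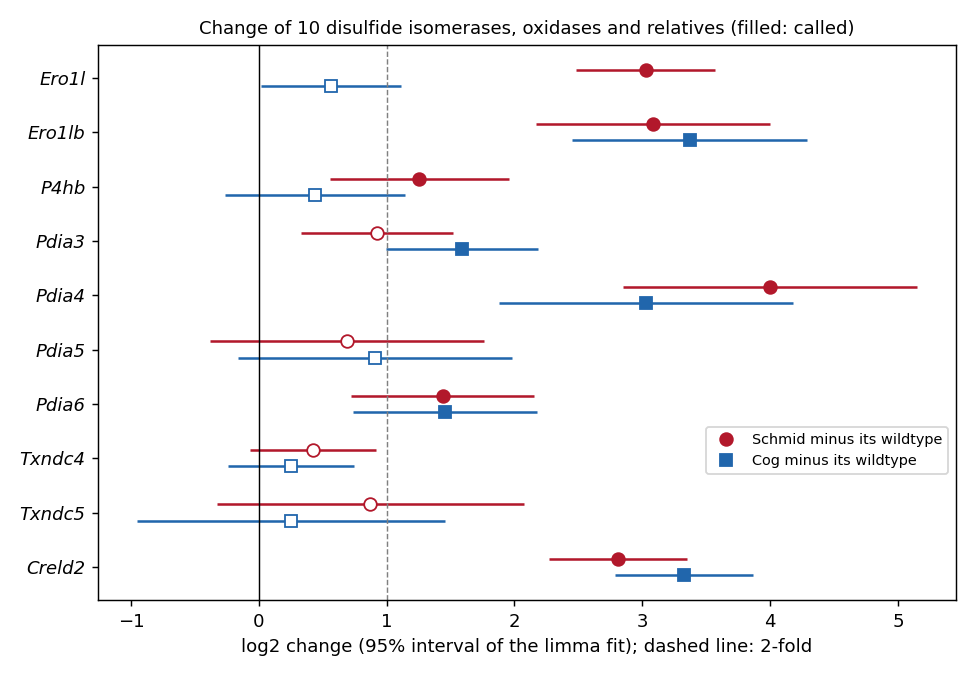
Log2 change of the brightest probe of each gene (x axis) in Schmid (red circles) and Cog (blue squares), each against its own wildtype, with 95% intervals from the limma fit on 12 arrays. Filled symbols were called, and the dashed line marks 2-fold. The Schmid and Cog intervals are apart for Ero1l and overlap for the other genes.

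Counted over probes, 10 of the 19 were called higher in Schmid and 8 in Cog, where 5.78% and 1.56% of all probes were. None of the 19 was called lower in either mutant, where 4.69% of all probes were in Schmid and 0.748% in Cog. All 3 mutant arrays lay above all 3 wildtype arrays at 13 of the 19 probes in Schmid and 11 in Cog, where 19.3% and 16.4% of all probes did so. Both counts include A_52_P339495 of Pdia6, at background on all 12 arrays. The Cog count also includes A_51_P354642 of Ero1lb, at background in Cog and its wildtype. Between the mutants, 4 of the 19 probes differed, where 16.6% of all probes did: both Ero1l probes, with the larger rise in Schmid, A_52_P135455 of Pdia6, with the larger rise in Cog, and A_51_P354642 of Ero1lb, which was at background on 10 of 12 arrays and from which nothing is read.

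**Figure D4:**
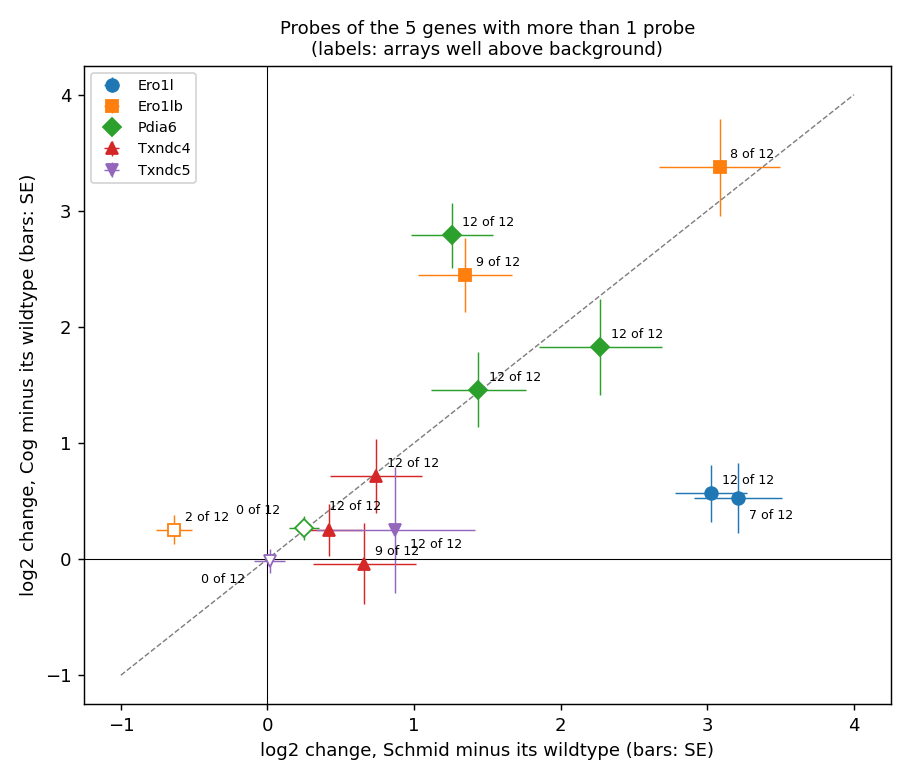
Log2 change in Schmid (x axis) and in Cog (y axis) of every probe of the 5 genes with more than 1 probe, with bars of 1 SE from the limma fit. Labels give the number of arrays on which a probe was well above background, open symbols had 2 or fewer, and the dashed line marks equal change. Both Ero1l probes lie far below that line, near 3 in Schmid and 0.5 in Cog.

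The members also varied together between mice of one group. Schmid replicate 1 was the highest array of its group at 10 of 10 genes, replicate 1 of the Schmid wildtype at 10 of 10, and replicate 1 of the Cog wildtype at 9 of 10. The share of all genes that did so was not counted. Replicate 1 of the wildtype groups also deviated together over all probes (correlation 0.407). Over the 12807 probes well above background on every array the correlation was 0.505, so the shift is not read as particular to the members. Averaged over the 10 genes, the signal stood 0.18 log2 units below the 12-array mean on wildtype replicate 1 of the Schmid background, against 1.39 and 1.13 below it on the other arrays of that group. In the Cog wildtype the values were 0.35, 0.98 and 1.04 below. The Schmid arrays stood 1.27, 0.80 and 0.79 above the mean and the Cog arrays 0.61, 0.89 and 0.70 above. Every mutant array was thus above every wildtype array in this average, although within the Schmid wildtype the arrays spread more widely than the gap from the highest of them to the lowest Schmid array.

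**Figure D5:**
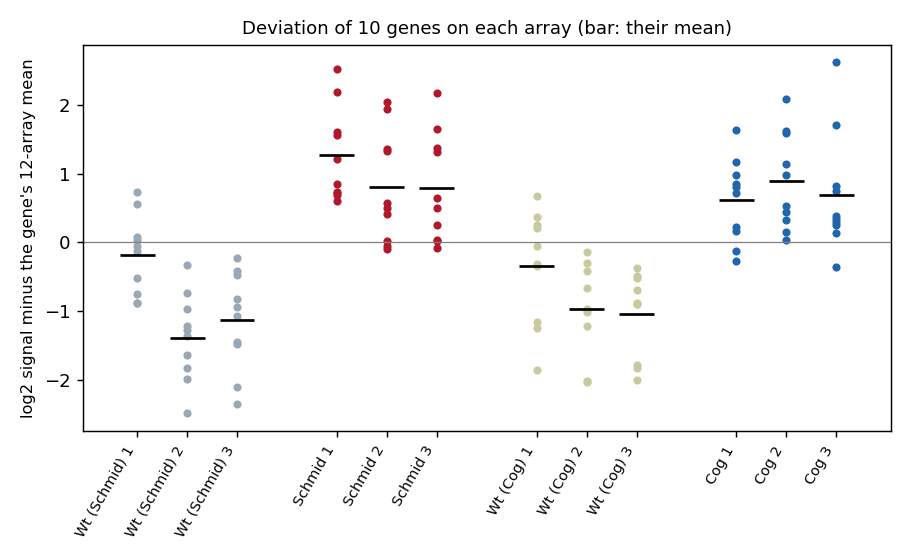
Log2 signal of the brightest probes of the 10 genes on each array, as the deviation from each gene's mean over the 12 arrays (y axis), by group and replicate (x axis). Points are genes and bars their mean on that array. Replicate 1 stands above replicates 2 and 3 in both wildtype groups and in Schmid.

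Some other genes of the pathway passed the test. Over the brightest probes of all gene names, 5.8% were called higher in Schmid, 1.89% in Cog, and 17.7% differed between the mutants. Among all probes 4.69% were called lower in Schmid and 0.748% in Cog. Of 11 other thioredoxin-fold proteins of the ER on the array, 1 rose in Schmid, Txndc12 (log2 change 1.38, adjusted p = 0.025, limma), and 1 in Cog, Txndc11 (1.60, adjusted p = 0.0083). Txndc11 was also 1.92-fold higher in Schmid (adjusted p = 0.018), under the fold limit, and the mutants did not differ by the test (adjusted p = 0.21, limma). The median log2 changes of these 11 genes were 0.27 in Schmid and -0.07 in Cog. Of 9 other thiol redox enzymes of the secretory pathway, Creld1, the paralogue of Creld2, rose in Schmid (log2 change 2.61, adjusted p = 0.0027, limma). In Cog its change was 0.56 (adjusted p = 0.50), and the difference between the mutants passed the test (2.05, adjusted p = 0.049). Part of that difference lies between the references. Creld1 was lower in the Schmid wildtype than in the Cog wildtype by 1.11 (unadjusted p = 0.030, adjusted p = 0.29, limma). The mutant means were 13.45 in Schmid and 12.51 in Cog. Vkorc1, the vitamin K epoxide reductase, and Selm, a selenoprotein, fell in Schmid by 1.15 and 1.48 on the log2 scale (adjusted p = 0.0019 and 0.018, limma), and 0 of these 9 were called in Cog. Prdx4, the ER peroxiredoxin that removes the peroxide made by Ero1, changed by 0.11 in Schmid and 0.18 in Cog on the log2 scale (adjusted p = 0.81 and 0.77, limma). Gpx7, another gene of this list, was 1.72-fold lower in Schmid (adjusted p = 0.029, limma), under the fold limit. In Cog Gpx7 was 1.32-fold lower (adjusted p = 0.33, limma).

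Of 12 partners and clients of the members, 2 rose and 1 fell in Schmid, and 4 rose in Cog. Over the brightest probes of all gene names, 5.8% were called higher in Schmid and 1.89% in Cog. Among all probes 4.69% were called lower in Schmid. Hspa5, the chaperone BiP, rose 4.12-fold in Schmid and 4.84-fold in Cog (limma, adjusted p = 0.0014 and 0.0052), and Hsp90b1 2.29-fold and 3.41-fold (adjusted p = 0.0073 and 0.0063). The lectin chaperones with which Pdia3 works, Calr and Canx, rose 2.05-fold and 2.04-fold in Cog (adjusted p = 0.0033 and 0.031). In Schmid Calr changed 1.79-fold (adjusted p = 0.0014) and Canx 1.38-fold (adjusted p = 0.15), so neither met both criteria. Of the prolyl 4-hydroxylase alpha subunits, which pair with P4hb, P4ha1 changed 2.12-fold in Schmid (adjusted p = 0.10) and P4ha2 1.68-fold (adjusted p = 0.060), and P4ha3 was at background on all 12 arrays. Itpr1, the calcium channel of the ER that the Txndc4 protein is known to bind, fell 3.34-fold in Schmid (adjusted p = 0.0046, limma) and changed by 0.05 on the log2 scale in Cog (adjusted p = 0.95), and the difference between the mutants passed the test (adjusted p = 0.026).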

How the data were processed

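The authors deposited the scanner output of 12 Agilent whole mouse genome arrays (Feature Extraction 9.5.3), with the intensity of 45018 spots and its local background, and a matrix of log2 values after normexp (offset 50) and quantile normalization. RNA had been amplified in linear rounds, which can favour 3' ends. From the intensities, control spots and flagged outliers were removed (99.81% of spots kept), and the methods' steps were repeated with limma 3.58.1 in R 4.3.3: normexp with offset 50, quantile normalization, averaging of spots, group means over all 12 arrays (8 residual degrees of freedom), empirical Bayes and Benjamini-Hochberg adjustment over 41174 probes. The brightest probe by mean log2 signal stood for a gene, and every probe of the 10 genes is named or counted. Of the pathway lists, genes called in either mutant or differing between them are named, with Prdx4, Gpx7, P4ha1 and P4ha2 added after their values were seen. For Ero1l and Ero1lb the most correlated genes were those well above background on at least 6 arrays. Where a probe stayed at background in a group, its fitted change is given without reading a size from it. The oxidase comparison exchanged arrays between backgrounds within mutants and within wildtypes. The procedure was tested on simulated data. Members and lists were chosen with earlier results of these data known. The sources do not tie equal replicate numbers to a litter or day. P-values measure the spread between these mice. Alternatives were other signals, scalings, filters, blocks, weights, probes and each array left out. Sequences came from the array files and from RefSeq windows (GRCm38.p6).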

Additional observations from a re-analysis of the deposited data

Results flagged for a closer look

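The Ero1l change in Schmid minus that in Cog was 2.46 on the log2 scale (limma, adjusted p = 0.0017). The gene is flagged because its change from wildtype was unequal in the mutant groups. Among the brightest probes of all gene names 17.7% passed the same test, so passing it does not by itself set Ero1l apart. All 3 Schmid arrays lay above all 9 others at both Ero1l probes. The part of slide and of the lower red cell and endothelial signal in Schmid was not tested.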

How the results depend on the processing

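The count of members higher in Schmid was 5 to 8 over all alternatives (main value 6). In Cog it was 5, rose to 6 with array weights (Pdia5), fell to 3 when Cog and its wildtype were fitted alone, and ranged from 2 to 5 with 1 array left out (2 without wildtype replicate 2 and 3 without replicate 3). The count with a larger change in Schmid was 1, and 1 to 2 with 1 array left out (2 without the Schmid wildtype replicate 1, P4hb being added), and the count with a larger change in Cog rose from 0 to 1 with array weights (Pdia3, adjusted p = 0.035, limma). Ero1l minus Ero1lb between the mutants was 2.82 on the processed signal, 2.97 with the second Ero1l probe, a choice made after seeing the data, and 2.24 to 3.15 with 1 array left out, with exact permutation p above 0.05 in 4 of those 12. Among changes that were called, the only one to turn was Ero1lb in Schmid at its dimmest probe (-0.64, with -0.89 between the mutants), which was near background. Values that were not called also turned sign under some alternatives: Txndc4 (lowest -0.05) and Txndc5 (-0.02) in Cog, and the differences between the mutants of Ero1lb (-1.10 to 0.33), Pdia5 (-0.82 to 0.28), Pdia6 (-1.54 to 0.44) and Txndc4 (-0.19 to 0.70). The calls of Ero1l, Pdia4 and Creld2 in Schmid and of Creld2 in Cog held under every alternative. With the replicate number as a block, the counts remained 6, 5 and 1 and no member's call changed. Arrays with the same number deviated together between Schmid and its wildtype by 0.193, 0.171 and 0.066 over all probes, and by 0.306, 0.283 and 0.117 over the 12807 probes well above background on every array, but between Cog and its wildtype by -0.116, 0.0721 and -0.106. The causes of these shifts were not tested. Signal near background limits Ero1lb in the wildtypes, and the top of the scale limits Creld2 and P4hb.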
